A study of Mus musculus with 6 samples.

Results

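Hearts of diabetic mice given a virus for a dominant negative MCUb (dnMCUb) were compared with hearts of control mice by RNA sequencing. The comparison takes 4 of the 6 libraries of the study, 2 per group, and covers the 13094 of 54352 genes in the table whose mean over the 6 libraries was at least 5. Values are regularized logarithms (rlog), a log2 scale on which the authors scaled the libraries and drew each value towards its gene's mean. The dnMCUb mice were C57BL/6 mice put on a high fat diet, with 60% of calories from fat, from 12 weeks of age and given a single streptozotocin injection of 75 mg/kg. Streptozotocin kills the insulin-making cells of the pancreas. The state was called type 2 diabetes (T2D) at 20 weeks of diet. A virus of the adeno-associated kind (AAV), which coded for mouse MCUb with the changes W246R and V251E and a FLAG tag, was given through the jugular vein. The injection came 16 to 18 weeks after streptozotocin. Hearts were studied 4 weeks after the virus and 5 to 6 months after induction. Control mice ate regular chow and, per their labels, carried neither the diabetes nor a vector. The remaining 2 libraries came from mice made diabetic in the same way and injected with an empty AAV, and their values are given beside the comparison as the empty vector group. Diet, streptozotocin, virus and transgene all differ between control and dnMCUb, so their shares in a difference cannot be told apart. The labels give neither the promoter of the transgene nor the serotype of the virus, and leave unsaid whether both libraries in a group are from different animals. The p-values therefore measure the spread between these libraries, which may be technical.

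The mitochondrial calcium uniporter lets calcium from the cytosol into the mitochondrial matrix, where it activates dehydrogenases that feed the respiratory chain. MCUb is a pore subunit that lowers uptake when it joins the channel. The heart burns mainly fatty acids, and in diabetes the nuclear receptor PPAR alpha and its targets favour fatty acids over glucose. Type I interferons act through transcription factors of the STAT and IRF families on a shared set of antiviral genes, many of which carry an interferon-stimulated response element near their start.

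Depth is unknown, because the table holds no counts. On the first principal component, which held 46.69% of the variance between libraries, dnMCUb library 1 stood at 10.8 and the other 5 libraries lay between -4.42 and 2.69. The difference between the 2 libraries of a group had an SD over genes of 0.0758 in control, 0.0829 in the empty vector group and 0.1351 in dnMCUb. Mcub itself does not check the labels. It stood at 5.42 and 5.47 in control, 5.48 and 5.46 in the empty vector group and 5.62 and 5.47 in dnMCUb, so dnMCUb library 2 was at the level of control library 2. The difference was 0.10 with a standard error (SE) of 0.05 and a limma adjusted p of 0.481, and the authors' deposited table gives a log2 fold of 0.85 with an unadjusted p of 0.0953. The groups are called here as the libraries are labelled. Ventricular markers were all above the minimum (11 of 11 listed genes), as the labelled tissue requires, and the listed lymphocyte and neutrophil markers were all under it (0 of 13 and 0 of 8).

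In limma, with Benjamini-Hochberg adjustment over all genes tested, 9 of 13094 genes passed 0.05 (0.0687%). Of these 8 rose (0.0611%) and 1 fell (0.00764%). Irf7, Ifit1, Ifi44, Ifit3b and Rsad2, 5 of the 8 that rose, are on the interferon list. Rhobtb1, Zbtb16 and Fam107a were the other genes that rose, and Irs1, the adaptor of the insulin receptor, was the gene that fell. All 9 sit at the threshold itself, with the same adjusted p of 0.04999, and 61 genes, 44 higher and 17 lower, had an adjusted p under 0.1. Without an adjustment 1497 genes had p under 0.05 (11.4%), 771 higher (5.89%) and 726 lower (5.54%). The authors' deposited table calls 104 of these genes (0.794%), 70 higher (0.535%) and 34 lower (0.26%), and all 9 limma genes are among them. Without control library 1 none of the 9 passed (limma adjusted p 0.413), and without control library 2 none did (0.342 to 0.392). The calls were also lost in the fit to the 4 libraries alone (limma adjusted p 0.119), and the direction of all 9 was kept in every alternative in which they were tested.

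**Figure D1:**
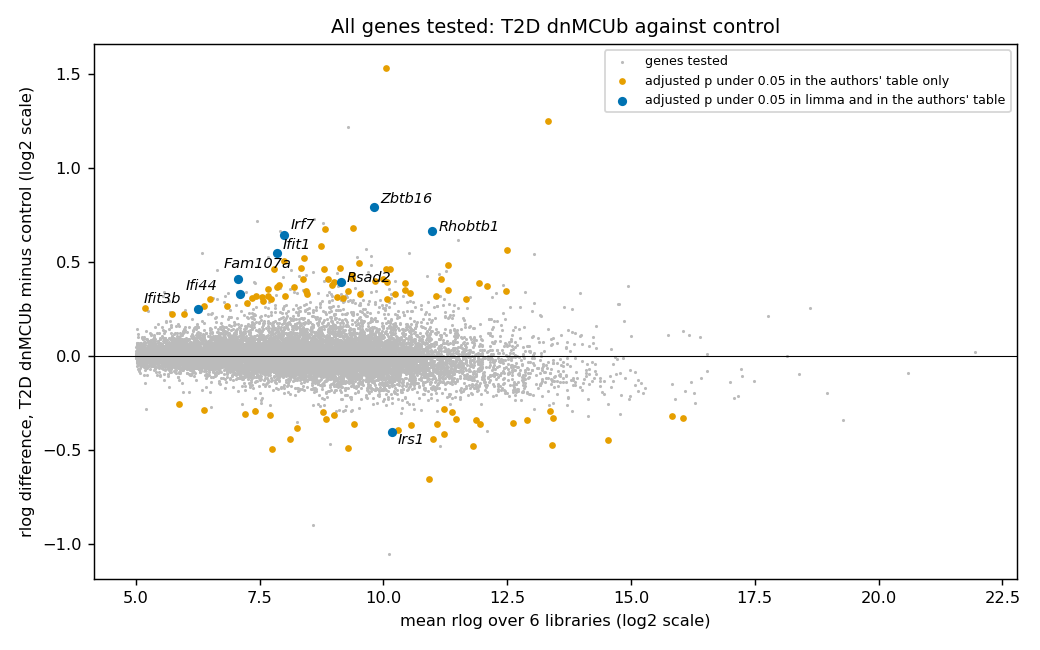
Each point is 1 of the 13094 genes tested, with its mean rlog over 6 libraries on the horizontal axis and the rlog difference, dnMCUb minus control, on the vertical axis. Blue points are the 9 genes past 0.05 in limma, orange points are called in the authors' deposited table alone and the lowest point is Bdh1 at -1.05.

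Over all genes tested the median difference was -0.0023 with an SD over genes of 0.0946. Both dnMCUb libraries lay above both control libraries for 2646 genes (20.2%) and below both for 2968 (22.7%), and the difference was above 0 for 48.5% and below 0 for 51.5%. For the 104 genes called in the authors' deposited table the rlog difference was a median 0.509 of the authors' log2 fold, so rlog differences understate the folds. In the comparisons that share these libraries limma called 0 genes. For empty vector against control, which uses the same 2 control libraries, 803 genes (6.13%) had an unadjusted p under 0.05 and the authors' deposited table calls 71 (0.542%). For dnMCUb against empty vector 739 genes (5.64%) had an unadjusted p under 0.05 and the authors' deposited table calls 8 (0.0611%), all higher. Among the 8 are Irf7, Zbtb16 and the globin genes Hba-a1, Hba-a2 and Hbb-bs.

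Of the 5 interferon genes that passed, 3 carry the core of the response element within the 250 bases before their RefSeq start (GRCm38.p6), and these windows are printed 5' to 3' on the gene's own strand to show where it lies. Capitals mark each match to GAAANNGAAA or, on the other strand, TTTCNNTTTC. The windows are chr19:34640639-34640888 on the plus strand for Ifit1, chr19:34607707-34607956 on the plus strand for Ifit3b and chr12:26456453-26456702 on the minus strand for Rsad2.
Ifit1: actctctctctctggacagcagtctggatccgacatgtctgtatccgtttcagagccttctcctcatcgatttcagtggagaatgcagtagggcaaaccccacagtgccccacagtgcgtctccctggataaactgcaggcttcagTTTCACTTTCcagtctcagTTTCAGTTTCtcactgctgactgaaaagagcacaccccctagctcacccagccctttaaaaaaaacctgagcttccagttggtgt
Ifit3b: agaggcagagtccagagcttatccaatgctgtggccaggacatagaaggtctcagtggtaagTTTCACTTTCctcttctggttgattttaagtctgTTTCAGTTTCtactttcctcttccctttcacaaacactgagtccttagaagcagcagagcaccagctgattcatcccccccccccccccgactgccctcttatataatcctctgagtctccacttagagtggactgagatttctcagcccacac
Rsad2: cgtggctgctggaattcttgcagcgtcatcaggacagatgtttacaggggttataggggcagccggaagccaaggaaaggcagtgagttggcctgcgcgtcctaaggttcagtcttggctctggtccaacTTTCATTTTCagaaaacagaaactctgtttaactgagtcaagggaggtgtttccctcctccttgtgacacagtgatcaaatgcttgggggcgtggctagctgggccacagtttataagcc
The matches begin 104 and 85 bases before the start in Ifit1, 188 and 154 bases before it in Ifit3b and 120 bases before it in Rsad2. Irf7 and Ifi44 had 0 matches in their windows. Of the 44 interferon genes tested 33 had a RefSeq promoter, and 16 of these (48.5%) held a match, against 240 of 9302 promoters of all genes tested (2.58%). A match is a string of letters in the window and no evidence of binding. Many interferon genes carry this element, so the share describes the list and not these hearts.

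Irf7 (ENSMUSG00000025498.15, chromosome 7 from 141263183 to 141266481, minus strand, GRCm38) is the transcription factor that amplifies type I interferon production. Irf7 stood at 7.77 and 7.69 in control, 7.88 and 7.89 in the empty vector group and 8.29 and 8.46 in dnMCUb. The 3 groups did not overlap, and both dnMCUb libraries were the highest. The difference to control was 0.64 (SE 0.06), and the authors' deposited table gives a log2 fold of 1.79 with an adjusted p of 3.66e-10. Against empty vector the difference was 0.49 (SE 0.06), which limma did not call (adjusted p 0.646) and the authors' deposited table does (9.16e-05).

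Ifit1 (ENSMUSG00000034459.8, chromosome 19 from 34640871 to 34650009, plus strand), which binds foreign RNA and blocks its translation, stood at 7.61 and 7.57 in control, 7.77 and 7.87 in the empty vector group and 8.08 and 8.20 in dnMCUb. It rose by 0.55 (SE 0.05). Ifit3b (ENSMUSG00000062488.9, chromosome 19 from 34607970 to 34613401, plus strand), of the same family and cluster, stood at 6.16 and 6.14, then 6.23 and 6.23, then 6.41 and 6.39 in the same order of groups. The groups did not overlap for either gene, and the empty vector libraries lay between control and dnMCUb. Ifit3b rose by 0.25 (SE 0.03). Its close paralog Ifit3 stood at 7.56 and 7.56 in control and 8.09 and 7.95 in dnMCUb, a difference of 0.46 (SE 0.06, limma adjusted p 0.0574). How reads shared by these paralogs were counted is not given in the sources used here, so the split between them is uncertain.

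Rsad2 (viperin; ENSMUSG00000020641.16, chromosome 12 from 26442746 to 26456452, minus strand) makes a nucleotide that stops viral RNA synthesis. It stood at 8.88 and 8.96 in control, 9.16 and 9.18 in the empty vector group and 9.30 and 9.34 in dnMCUb. The rise over control was 0.39 (SE 0.04), and the difference of empty vector to control was 0.25 (SE 0.04, limma adjusted p 0.435). Ifi44 (ENSMUSG00000028037.13, chromosome 3 from 151730922 to 151749960, minus strand), an interferon-induced gene, stood at 6.94 and 6.97, 7.06 and 7.04, and 7.31 and 7.27 in the same order. It rose by 0.33 (SE 0.03). In both genes every dnMCUb library was above every other library.

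Among the interferon genes that did not pass, Ifit2 stood at 8.78 and 8.83 in control and 9.19 and 9.21 in dnMCUb (difference 0.39, SE 0.05, limma adjusted p 0.0523). Oasl2, a relative of the oligoadenylate synthetases that sense RNA, stood at 7.50 and 7.48 in control and 7.88 and 7.82 in dnMCUb (difference 0.36, SE 0.04, limma adjusted p 0.0523). Ifi204, of a family of interferon-induced DNA sensors and not on the list, stood at 7.40 and 7.39 in control and 7.74 and 7.68 in dnMCUb (difference 0.31, SE 0.04, limma adjusted p 0.0523). In each of the 3 genes the groups were apart, with the empty vector libraries between them.

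The interferon list has 47 genes, of which 44 were tested. Oas3, Mx1 and Zbp1 were under the minimum. This list and the others were chosen with earlier results of these data known. Members of a list were read in the same 4 libraries and are not replicates. All 44 had a difference above 0 (48.5% of all genes tested) and 41 had groups apart with dnMCUb higher (20.2% of all). An unadjusted limma p under 0.05 was found for 34 (5.89% of all), and 5 passed in limma (0.0611% of all). The authors' deposited table calls 12 of the list higher (0.535% of all). The differences ran from 0.05 for Irf9 to 0.64 for Irf7, with a median of 0.16 against -0.0023 over all genes. The median of the list over the mean of control was 0.166 in dnMCUb library 1 and 0.189 in library 2, and 0.0721 and 0.0857 in the empty vector libraries. Both dnMCUb libraries were thus higher than both empty vector libraries, and library 2 alone gave as large a median as library 1, which stands apart on the first component. For dnMCUb against empty vector all 44 differences were above 0 with a median of 0.11, and for empty vector against control 40 were with a median of 0.08. These comparisons share libraries with the first and are no independent support for it. All diabetic mice had received a virus and the control mice none, so virus and diabetes cannot be told apart here.

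**Figure D2:**
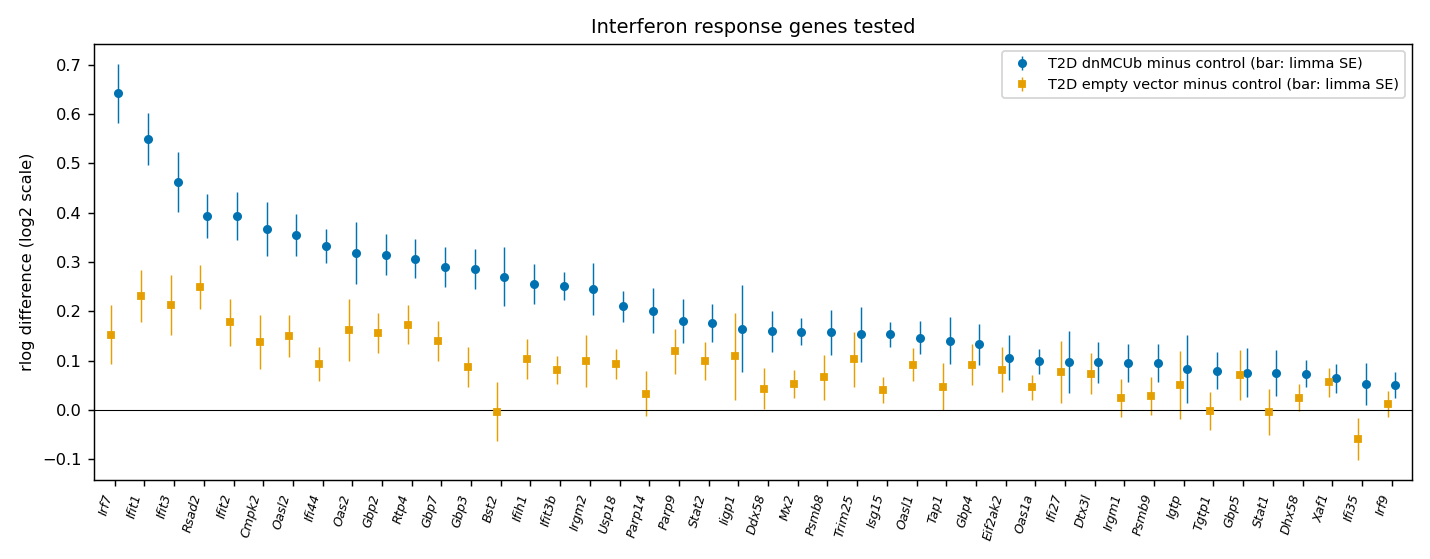
Each position is 1 of the 44 interferon genes tested, ordered by the rlog difference of dnMCUb minus control (blue circles), with empty vector minus control beside it (orange squares) and the limma SE as bars. Blue values run from 0.64 at Irf7 to 0.05 at Irf9, and all 44 lie above 0.

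Macrophage markers were also higher. All 18 listed markers were tested and had a difference above 0 (48.5% of all genes tested), 13 with groups apart (20.2% of all), 9 with an unadjusted p under 0.05 (5.89% of all) and 0 passing in limma, with a median of 0.15. The median over control was 0.224 in dnMCUb library 1 and 0.080 in library 2. The log2 of the summed marker level was 12.83 and 12.83 in control, 12.91 and 12.85 in the empty vector group and 13.08 and 12.93 in dnMCUb, and 0 of the 18 were listed at 0. Mertk, a receptor for the uptake of dying cells, stood at 8.25 and 8.32 in control, 8.36 and 8.35 in the empty vector group and 8.60 and 8.50 in dnMCUb (difference 0.27, SE 0.05, limma adjusted p 0.111). Ccr2, the receptor of monocyte-derived cells, stood at 7.54 and 7.50, 7.85 and 7.79, and 7.73 and 7.91 in the same order (0.30, SE 0.06, limma adjusted p 0.147), so here the diabetic groups overlapped. The part of these markers in the interferon result was not tested, and in whole tissue more cells of a type cannot be told apart from more RNA per cell.

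All 8 tested genes of MHC class II presentation, which shows peptides to helper T cells, had a difference above 0 (48.5% of all genes tested). In 6 the groups were apart (20.2% of all), and the median was 0.27 (0.155 over control in dnMCUb library 1 and 0.289 in library 2). The empty vector libraries stood at 0.154 and 0.0227, so library 1 of that group was near dnMCUb library 1. None passed in limma. H2-Ab1, a chain of the class II molecule, stood at 9.31 and 9.26 in control, 9.46 and 9.31 in the empty vector group and 9.48 and 9.66 in dnMCUb (difference 0.28, SE 0.07, limma adjusted p 0.23). Cd74, the invariant chain, stood at 10.48 and 10.42, 10.69 and 10.51, and 10.64 and 10.82 in the same order (0.28, SE 0.08, limma adjusted p 0.26). In both genes an empty vector library reached into the range of dnMCUb or close to it. Of 32 tested inflammation, chemokine and complement genes 26 were above 0 (48.5% of all) and 18 had groups apart with dnMCUb higher (20.2% of all), with a median of 0.10. That median was 0.0581 without dnMCUb library 1 and 0.16 without library 2. Vcam1, the adhesion receptor for leukocytes on endothelium, stood at 9.15 and 9.15 in control and 9.76 and 9.39 in dnMCUb, a difference of 0.42 (SE 0.10, limma adjusted p 0.208). The authors' deposited table calls it higher (adjusted p 0.0118).

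The other genes that passed have different roles. Rhobtb1 (ENSMUSG00000019944.14, chromosome 10 from 69212634 to 69291791, plus strand) codes for an adaptor of a cullin ubiquitin ligase. It stood at 10.61 and 10.55 in control, 11.15 and 11.13 in the empty vector group and 11.15 and 11.33 in dnMCUb. The diabetic groups nearly touched, and both were above control. Rhobtb1 rose by 0.66 (SE 0.07) in dnMCUb, and its difference in empty vector against control was 0.56 (SE 0.07), not called by limma (adjusted p 0.312) but called in the authors' deposited table (7.6e-16).

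Zbtb16 (PLZF; ENSMUSG00000066687.5, chromosome 9 from 48654297 to 48835945, minus strand) is a zinc finger transcription factor that glucocorticoids induce in many tissues. It stood at 9.47 and 9.49 in control, 9.76 and 9.64 in the empty vector group and 10.12 and 10.42 in dnMCUb. The 3 groups did not overlap. It rose by 0.79 (SE 0.09), the widest difference among the 9 genes, and has the smallest adjusted p of the comparison in the authors' deposited table (1.54e-11, log2 fold 1.39). Against empty vector the difference was 0.57 (SE 0.09, limma adjusted p 0.78), which the authors' deposited table calls (9.24e-05).

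Fam107a (ENSMUSG00000021750.15, chromosome 14 from 8296274 to 8309779, minus strand), an actin-binding protein whose gene responds to stress hormones, stood at 6.92 and 6.84 in control, 7.08 and 6.99 in the empty vector group and 7.31 and 7.27 in dnMCUb. The groups did not overlap, and it rose by 0.41 (SE 0.05). Of the 25 tested atrophy and glucocorticoid target genes 17 were above 0 (48.5% of all genes tested), 11 had groups apart with dnMCUb higher (20.2%) and 2 with dnMCUb lower (22.7%), and the median was 0.05. Of the list 1 gene, Zbtb16, passed in limma (0.0611% of all passed and rose). The authors' deposited table calls 3 of the list higher (0.535% of all). Fkbp5, a co-chaperone of the glucocorticoid receptor, stood at 8.06 and 8.14 in control, 8.38 and 8.25 in the empty vector group and 8.66 and 8.48 in dnMCUb (difference 0.47, SE 0.07, limma adjusted p 0.0682). Tsc22d3 (GILZ), an anti-inflammatory target of that receptor, stood at 10.99 and 10.95, 11.18 and 11.04, and 11.24 and 11.52 (0.41, SE 0.09, limma adjusted p 0.184). Trim63 (MuRF1), a ubiquitin ligase of muscle atrophy, stood lower, at 11.64 and 11.67 in control, 11.73 and 11.77 in the empty vector group and 11.48 and 11.49 in dnMCUb (difference -0.17, SE 0.05, limma adjusted p 0.273).

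Irs1 (ENSMUSG00000055980.2, chromosome 1 from 82233101 to 82291416, minus strand), the substrate through which the insulin receptor reaches PI3 kinase, stood at 10.41 and 10.39 in control, 10.06 and 10.12 in the empty vector group and 9.96 and 10.03 in dnMCUb. All diabetic libraries were below both control libraries. Irs1 fell by 0.41 (SE 0.05) in dnMCUb, and empty vector differed from control by -0.31 (SE 0.05, limma adjusted p 0.409). The authors' deposited table calls both (adjusted p 0.000503 and 0.00101). The insulin signalling list as a whole was spread around 0. Of its 29 tested genes, Irs1 included, 12 were above 0 and 17 below, with a median of -0.01. Pik3r1, the regulatory subunit of PI3 kinase, had a difference of 0.16 (SE 0.06, limma adjusted p 0.354) and Inppl1, a lipid phosphatase, one of -0.17 (SE 0.05, limma adjusted p 0.297).

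**Figure D3:**
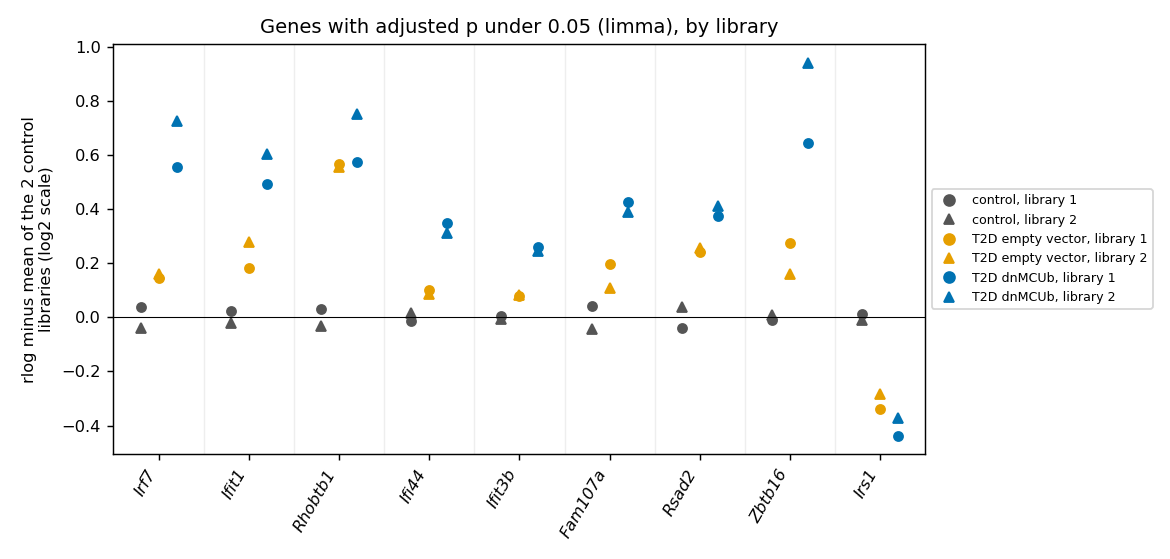
For the 9 genes past 0.05 in limma, each symbol is the rlog of 1 library minus the mean of the 2 control libraries (circles library 1, triangles library 2). The dnMCUb libraries (blue) lie above control in 8 genes and below it in Irs1, and the empty vector libraries (orange) lie between control and dnMCUb in all 9.

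Pdk4, the kinase that shuts off pyruvate dehydrogenase and a PPAR alpha target, stood at 12.67 and 12.31 in control, 13.71 and 13.71 in the empty vector group and 13.49 and 13.99 in dnMCUb. All diabetic libraries were above control, and those of dnMCUb lay on either side of the empty vector libraries. The difference was 1.25 (SE 0.17, limma adjusted p 0.0576), with a log2 fold of 1.86 in the authors' deposited table (adjusted p 0.00903), and dnMCUb minus empty vector was 0.03. The difference of Pdk4 to control is wider than that of any of the 9 genes, but its control libraries differ more.

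Acot1, a thioesterase that releases fatty acids from coenzyme A, stood at 8.47 and 8.25 in control, 8.85 and 8.92 in the empty vector group and 8.83 and 9.06 in dnMCUb (difference 0.58, SE 0.09, limma adjusted p 0.0733). Acot2, its mitochondrial paralog, stood at 10.99 and 10.93, 11.53 and 11.51, and 11.27 and 11.63 (0.49, SE 0.10, limma adjusted p 0.165). In both, diabetic libraries were above control and the 2 diabetic groups overlapped. The authors' deposited table calls both higher (adjusted p 2.51e-05 and 0.00152). Of 21 tested PPAR alpha targets 18 were above 0 (48.5% of all genes tested) and 10 had groups apart with dnMCUb higher (20.2% of all), with a median of 0.11. That median was 0.0326 over control in dnMCUb library 1 and 0.229 in library 2, so it differs by more than 1.5 times with the library taken, and it was 0.175 without control library 1. The empty vector libraries stood at 0.197 and 0.109, both above dnMCUb library 1. The 33 genes of fatty acid uptake and beta-oxidation had a median of 0.06, with -0.0656 in library 1 and 0.16 in library 2, so the 2 dnMCUb libraries lay on opposite sides of control, and it was -0.00375 without control library 2. Ppara itself, at 9.61 and 9.67 in control and 9.46 and 9.63 in dnMCUb, had overlapping groups (difference -0.09, SE 0.06).

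Genes of glucose use were mostly lower. Of 24 tested genes of glucose uptake and glycolysis 19 had a difference below 0 (51.5% of all genes tested) and 15 had groups apart with dnMCUb lower (22.7% of all), with a median of -0.10. Without dnMCUb library 1 the median was -0.0588 and without library 2 it was -0.198. The empty vector libraries stood at -0.0499 and -0.103 over control, and for empty vector against control 4 of 24 genes were above 0. Aldoc and Gapdh were under the minimum. Slc2a4 (GLUT4), the insulin-responsive glucose transporter, stood at 12.83 and 12.76 in control, 12.65 and 12.57 in the empty vector group and 12.34 and 12.54 in dnMCUb (difference -0.35, SE 0.08, limma adjusted p 0.167). Slc2a1 (GLUT1), the basal transporter, stood at 7.86 and 7.84, 7.72 and 7.64, and 7.60 and 7.59 (-0.26, SE 0.04, limma adjusted p 0.0733). In both, the groups were in the order control, empty vector and dnMCUb without overlap. Hk2, the insulin-regulated hexokinase that traps glucose in the cell, stood at 13.03 and 13.08, 12.93 and 12.90, and 12.64 and 12.80 (-0.34, SE 0.07, limma adjusted p 0.147). Slc2a4 and Hk2 are called lower in the authors' deposited table (adjusted p 0.0141 and 0.0133). Pfkfb3, which makes the activator of phosphofructokinase, was higher, at 7.28 and 7.24 in control and 7.48 and 7.45 in dnMCUb (0.21, SE 0.04, limma adjusted p 0.111).

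Of the 32 genes of the pyruvate dehydrogenase complex and the TCA cycle 31 had a difference below 0 (51.5% of all), 14 with groups apart (22.7% of all), with a median of -0.11. This median was -0.207 over control in dnMCUb library 1 and -0.0208 in library 2, and the empty vector libraries stood at -0.0221 and -0.0933. Library 1 therefore sets most of its size, and without that library 11 of 32 were above 0. Pcx, which makes oxaloacetate from pyruvate, stood at 9.22 and 9.13 in control, 9.02 and 8.94 in the empty vector group and 8.84 and 8.88 in dnMCUb (difference -0.31, SE 0.05, limma adjusted p 0.0742). Here both dnMCUb libraries were the lowest, and the authors' deposited table calls Pcx lower (adjusted p 0.0321). Pdhx, the binding protein of the pyruvate dehydrogenase complex, stood at 11.42 and 11.45, 11.38 and 11.30, and 11.15 and 11.29 (-0.21, SE 0.06, limma adjusted p 0.273).

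Of 22 genes of ketone and branched chain amino acid oxidation 21 had a difference below 0 (51.5% of all), 15 with groups apart (22.7% of all) and 12 with an unadjusted p under 0.05 (5.54% of all), with a median of -0.15. The median was -0.208 in dnMCUb library 1 and -0.0882 in library 2, and -0.0592 and -0.127 in the empty vector libraries. Oxct1, which activates ketone bodies for use as fuel, stood at 14.77 and 14.76 in control, 14.58 and 14.48 in the empty vector group and 14.30 and 14.33 in dnMCUb. The 3 groups did not overlap and dnMCUb was the lowest. The difference was -0.45 (SE 0.07, limma adjusted p 0.0848), and the authors' deposited table calls it with a log2 fold of -0.64 (adjusted p 3.64e-06). Bdh1, which oxidizes the ketone body beta-hydroxybutyrate, had the lowest difference of all genes tested and was picked for that after its values were seen. It stood at 10.32 and 10.75 in control, 10.60 and 10.01 in the empty vector group and 9.91 and 9.05 in dnMCUb, a difference of -1.05 (SE 0.29, limma adjusted p 0.258). The authors' deposited table does not call Bdh1 (log2 fold -1.70, adjusted p 0.993). Both dnMCUb libraries were below all others, and the libraries of each group differed widely.

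The branched chain keto acid dehydrogenase has 3 subunit genes on this list, Dbt, Bckdhb and Bckdha, and none passed in limma. Dbt, its acyltransferase, stood at 10.80 and 10.73 in control, 10.68 and 10.57 in the empty vector group and 10.44 and 10.52 in dnMCUb (difference -0.28, SE 0.06, limma adjusted p 0.161). Bckdhb, a decarboxylase subunit, stood at 9.70 and 9.60, 9.52 and 9.41, and 9.32 and 9.43 (-0.27, SE 0.06, limma adjusted p 0.184). Bckdha, the other decarboxylase subunit, stood at 12.32 and 12.23, 12.30 and 12.22, and 12.04 and 12.22 (-0.15, SE 0.08, limma adjusted p 0.495). Acadsb, an acyl-CoA dehydrogenase of branched chain substrates, stood at 12.16 and 12.06, 11.96 and 11.89, and 11.82 and 11.89 (-0.26, SE 0.06, limma adjusted p 0.196). In all of these genes dnMCUb lay below control, by a small margin for library 2 in Bckdha, and in Bckdhb it overlapped the empty vector group. Abat, which degrades the transmitter GABA, stood at 9.08 and 9.14 in control, 8.44 and 8.32 in the empty vector group and 8.46 and 7.96 in dnMCUb (difference -0.90, SE 0.14, limma adjusted p 0.0682). The diabetic groups overlapped for Abat. The authors' deposited table does not call it for dnMCUb against control (log2 fold -1.85, adjusted p 0.384) but does for empty vector against control (log2 fold -1.47, adjusted p 1.29e-17).

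The lipid synthesis and storage list had no common direction: 15 of 31 tested genes were above 0, with a median of 0.00. Scd4, a stearoyl-CoA desaturase, stood at 8.49 and 8.35 in control, 8.86 and 8.98 in the empty vector group and 8.93 and 9.26 in dnMCUb (difference 0.68, SE 0.10, limma adjusted p 0.0682). Lipe, the hormone-sensitive lipase, stood at 9.56 and 9.47, 9.77 and 9.76, and 9.73 and 9.86 (0.28, SE 0.06, limma adjusted p 0.151). Lpin1, a phosphatidate phosphatase, stood at 12.11 and 12.17, 11.91 and 11.92, and 11.78 and 11.78 (-0.36, SE 0.05, limma adjusted p 0.0597). Scd4 is called higher in the authors' deposited table (adjusted p 7.9e-08), and the diabetic groups overlapped for it and for Lipe but not for Lpin1.

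**Figure D4:**
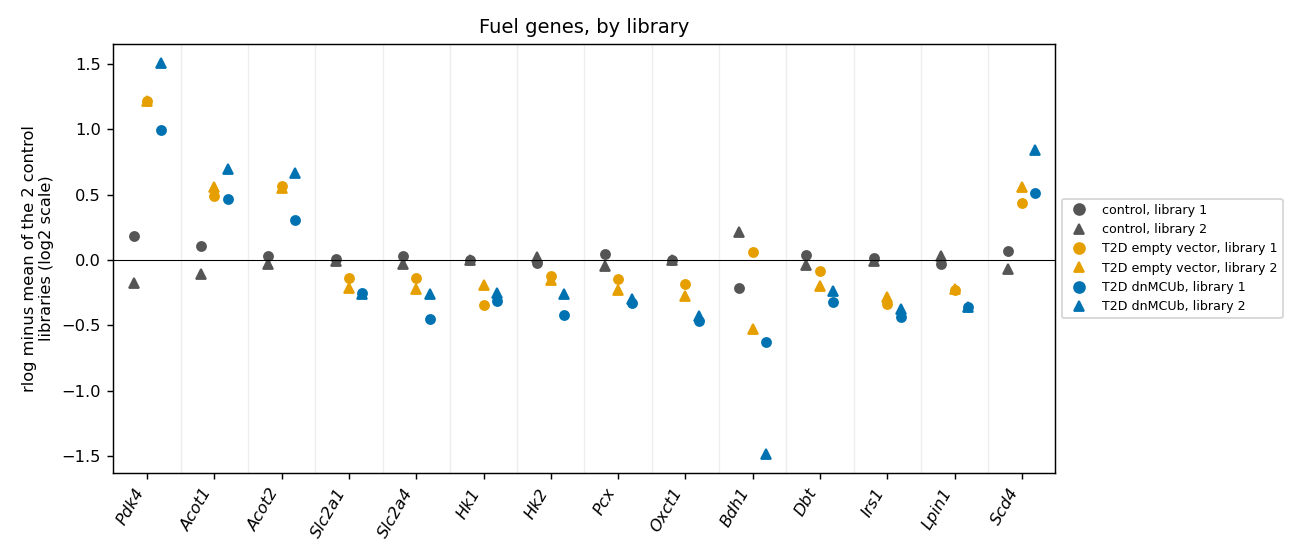
For genes of fuel use, each symbol is the rlog of 1 library minus the mean of the 2 control libraries (circles library 1, triangles library 2). Of the genes drawn, Pdk4 lies highest (mean difference of dnMCUb 1.25) and Bdh1 lowest (-1.05), and for Pdk4, Acot1, Acot2 and Scd4 the empty vector libraries (orange) lie within or beside the dnMCUb libraries (blue).

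Of 15 tested genes of mitochondrial calcium entry and exit 4 were above 0 (48.5% of all genes tested) and none passed in limma, with a median of -0.05. Without dnMCUb library 1 the median was 0.0163 with 8 of 15 above 0, and without library 2 it was -0.123, so its sign rests on library 1. Mcu, the pore, lay between 6.98 and 7.10 in all 6 libraries, and dnMCUb differed from control by -0.05 (SE 0.04). Slc8b1 (NCLX), the exchanger that returns calcium to the cytosol, stood at 7.36 and 7.34, 7.39 and 7.41, and 7.46 and 7.46 (0.11, SE 0.03, limma adjusted p 0.319). Letm1, a cation exchanger of the inner membrane, stood at 10.52 and 10.54, 10.55 and 10.52, and 10.33 and 10.44 (-0.15, SE 0.05, limma adjusted p 0.337). The dnMCUb libraries were the highest for Slc8b1 and the lowest for Letm1, while the groups overlapped for Mcu. The gatekeeper Micu2 and the essential regulator Smdt1 had differences of -0.05 and -0.01, whose sign turned when single libraries were left out. Of 49 nuclear genes of the respiratory chain 46 were below 0 (51.5% of all) and 7 had groups apart, a lower share than among all genes (22.7%). The median of -0.09 was -0.208 in dnMCUb library 1 and 0.00669 in library 2, and -0.0561 without control library 1. Without library 1 no common direction was left, 29 of 49 being above 0.

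Contractile genes were lower, more so in library 1. Of 24 sarcomere genes 21 had a difference below 0 (51.5% of all genes tested) and 15 had groups apart with dnMCUb lower (22.7% of all), with a median of -0.16. The median was -0.27 in dnMCUb library 1, -0.0599 in library 2 and -0.114 and -0.0898 in the empty vector libraries. Quantile normalisation, chosen as an alternative, moved it to -0.0454. Tnnc1, the calcium sensor of the thin filament, stood at 13.57 and 13.65 in control, 13.43 and 13.37 in the empty vector group and 13.22 and 13.34 in dnMCUb (difference -0.33, SE 0.07, limma adjusted p 0.167). Mybpc3, a thick filament regulator, stood at 16.20 and 16.28, 16.07 and 15.97, and 15.81 and 16.01 (-0.33, SE 0.11, limma adjusted p 0.319). In both genes all diabetic libraries were below control. The authors' deposited table calls both lower (adjusted p 0.0136 and 0.0332), and also for empty vector against control (0.0410 and 0.0296). Of the 11 ventricular myocyte markers 10 were below 0 (51.5% of all genes tested) and 8 had groups apart with dnMCUb lower (22.7% of all). Their median was -0.19, with -0.0743 without dnMCUb library 1, -0.311 without library 2 and -0.0293 after quantile normalisation. The log2 of the summed level of these markers was 20.49 and 20.40 in control, 20.33 and 20.32 in the empty vector group and 20.13 and 20.39 in dnMCUb. Their part in the lower values of sarcomere and mitochondrial genes was not tested.

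Of 18 tested cardiac stress and fetal genes 13 were below 0 (51.5% of all genes tested) and 9 had groups apart with dnMCUb lower (22.7% of all), with a median of -0.13. It was -0.0746 without dnMCUb library 2 and -0.0731 without control library 2. Nppb, the hormone BNP, stood at 11.06 and 11.53 in control, 10.87 and 10.71 in the empty vector group and 10.72 and 10.57 in dnMCUb. All diabetic libraries were below control, with a difference of -0.65 (SE 0.14, limma adjusted p 0.162) that the authors' deposited table calls (log2 fold -1.04, adjusted p 4.73e-05). Nppa, the atrial peptide ANP, stood at 10.52 and 11.01, 10.01 and 9.63, and 10.89 and 10.04, so control and dnMCUb overlapped. Rrad, a GTPase that restrains the L-type calcium channel, stood at 12.07 and 12.08, 11.59 and 11.87, and 11.56 and 11.64 (difference -0.48, SE 0.09, limma adjusted p 0.123), and is called lower in the authors' deposited table (adjusted p 3.23e-06). Gja1, the gap junction protein connexin of ventricular muscle, stood at 13.56 and 13.50, 13.29 and 13.36, and 13.21 and 13.28 (-0.29, SE 0.07, limma adjusted p 0.184). It too is called lower in the authors' deposited table (adjusted p 0.0278). Atp2a2, the calcium pump of the sarcoplasmic reticulum, stood at 17.57 and 17.51 in control and 17.31 and 17.50 in dnMCUb (-0.13, SE 0.13).

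Among further genes with low p, Map3k6, a kinase of stress signalling, stood at 7.69 and 7.73 in control, 7.93 and 7.88 in the empty vector group and 8.13 and 8.03 in dnMCUb (difference 0.38, SE 0.05, limma adjusted p 0.0523). Epha4, a receptor of ephrins, stood at 11.31 and 11.23, 10.96 and 10.88, and 10.88 and 10.78 (-0.44, SE 0.06, limma adjusted p 0.0574). In Map3k6 the 3 groups were apart, while the diabetic groups nearly touched in Epha4. Apln, the peptide apelin, stood at 8.42 and 8.51, 8.16 and 8.22, and 8.15 and 8.02 (-0.38, SE 0.06, limma adjusted p 0.0625). Optn, an autophagy receptor, stood at 10.70 and 10.77, 10.62 and 10.50, and 10.35 and 10.39 (-0.37, SE 0.06, limma adjusted p 0.0727). Both were lowest in the dnMCUb libraries. The remaining genes with low p that were lower, Gnb3, Krt222, Snn, Adcy1 and Scgb1c1, had differences from -0.30 to -0.25, each with limma adjusted p between 0.0576 and 0.0712. Tuba4a, Armc2 and Lrrc4b, which the authors' deposited table calls lower, had rlog differences of -0.47, -0.49 and -0.50 in that order.

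All 21 tested immediate early genes, the transcription factors and phosphatases that respond within minutes to stimulation, had a difference above 0 (48.5% of all genes tested). In 20 the groups were apart (20.2% of all), 16 had an unadjusted p under 0.05 (5.89% of all) and none passed in limma, with a median of 0.20. The median was 0.158 in dnMCUb library 1 and 0.237 in library 2, and the empty vector libraries stood at 0.159 and 0.0457. Ier5 stood at 9.03 and 9.07 in control, 9.29 and 9.14 in the empty vector group and 9.38 and 9.31 in dnMCUb (difference 0.29, SE 0.06, limma adjusted p 0.13). Egr1, a zinc finger factor, stood at 6.92 and 7.02, 6.94 and 7.07, and 7.14 and 7.21 (0.20, SE 0.05, limma adjusted p 0.247). Both dnMCUb libraries were above the others for these 2 genes, while over the list empty vector library 1 was as high as dnMCUb library 1.

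Of 21 clock genes 14 had a difference above 0 (48.5% of all genes tested), 12 with groups apart and dnMCUb higher (20.2% of all), and 4 with groups apart and dnMCUb lower, near the share among all genes (22.7%). Per2, a repressor of the clock loop, stood at 7.71 and 7.79 in control, 8.08 and 7.88 in the empty vector group and 8.10 and 8.41 in dnMCUb (difference 0.51, SE 0.10, limma adjusted p 0.143). Dbp, an output factor, stood at 9.70 and 9.93, 10.32 and 10.23, and 10.17 and 10.39 (0.46, SE 0.09, limma adjusted p 0.143). Arntl (BMAL1), the activator of the loop, stood at 8.40 and 8.35, 7.97 and 8.03, and 8.09 and 7.78 (-0.44, SE 0.09, limma adjusted p 0.135). All diabetic libraries were above control for Per2 and Dbp and below it for Arntl, and the diabetic groups overlapped for Dbp and Arntl. The authors' deposited table calls all 3 (adjusted p 0.000103, 0.00364 and 0.0132). The E-box CACGTG, the same letters on both strands, was in 5 of 17 clock promoters (29.4%) against 794 of 9302 of all genes tested (8.54%). It was also in 4 of 21 promoters of the atrophy and glucocorticoid list (19%) and in 1 of 33 of the interferon list (3.03%). Here too a match is no evidence of binding, and the shares describe the lists and not these hearts.

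Matrix and fibroblast genes were high in dnMCUb library 1 and not in library 2. All 12 fibroblast markers had a difference above 0 (48.5% of all genes tested), but 4 had groups apart (20.2% of all). Their median of 0.23 was made of 0.471 in library 1 and -0.0197 in library 2. Of 42 extracellular matrix genes 36 were above 0 with a median of 0.14, which was 0.296 in library 1 and -0.0228 in library 2. The empty vector libraries differed in the same lists, with medians of -0.0384 and 0.219 for fibroblasts and -0.0494 and 0.185 for matrix. Without dnMCUb library 1 the matrix count fell from 36 to 13 and the sign of both medians turned. Timp3, an inhibitor of matrix proteases, stood at 12.23 and 12.24 in control, 12.34 and 12.57 in the empty vector group and 12.99 and 12.60 in dnMCUb (difference 0.56, SE 0.13, limma adjusted p 0.184), above control in both libraries and called higher in the authors' deposited table (adjusted p 0.000119). The same library was high in most atrial markers. Without dnMCUb library 2, 6 of 8 had a difference above 0, while that of Kcnj3 was -0.11. Dkk3 stood at 8.77 and 7.77 in control, 7.77 and 9.24 in the empty vector group and 10.18 and 7.81 in dnMCUb, and Sln, the atrial inhibitor of the calcium pump, at 6.98 and 6.07, 6.12 and 6.22, and 7.55 and 6.11. Over the 8 atrial markers tested the median over control was 0.599 in dnMCUb library 1 and -0.435 in library 2, and none of the 8 had groups apart. That median was -0.254 in empty vector library 2, where Dkk3 was high, so Dkk3 did not follow the list. The log2 of the summed atrial level was 12.71 and 12.45 in control and 13.07 and 12.20 in dnMCUb, and 0 of the 9 listed markers were at 0. The part of atrial or fibroblast content in the other results of library 1 was not tested.

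Red cell genes varied within groups. Hbb-bs, adult beta globin, stood at 11.98 and 10.96 in control, 10.94 and 10.97 in the empty vector group and 11.80 and 12.36 in dnMCUb (difference 0.62, SE 0.30, limma adjusted p 0.482). Control library 1 was above dnMCUb library 1, so the groups overlapped. The alpha globin genes Hba-a1 and Hba-a2, near-identical copies whose reads may be split uncertainly, had differences of 0.53 and 0.46 with overlapping groups. Against empty vector the authors' deposited table calls Hba-a1, Hba-a2 and Hbb-bs higher in dnMCUb (adjusted p 3.72e-10, 7.63e-11 and 0.00715). It calls none of them against control. All 8 tested red cell markers were above 0 (48.5% of all genes tested), and 1 had groups apart (20.2% of all, dnMCUb higher). That gene was Ube2l6, which is not a globin gene. It stood at 7.27 and 7.13 in control, 7.17 and 7.27 in the empty vector group and 7.38 and 7.48 in dnMCUb.

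**Figure D5:**
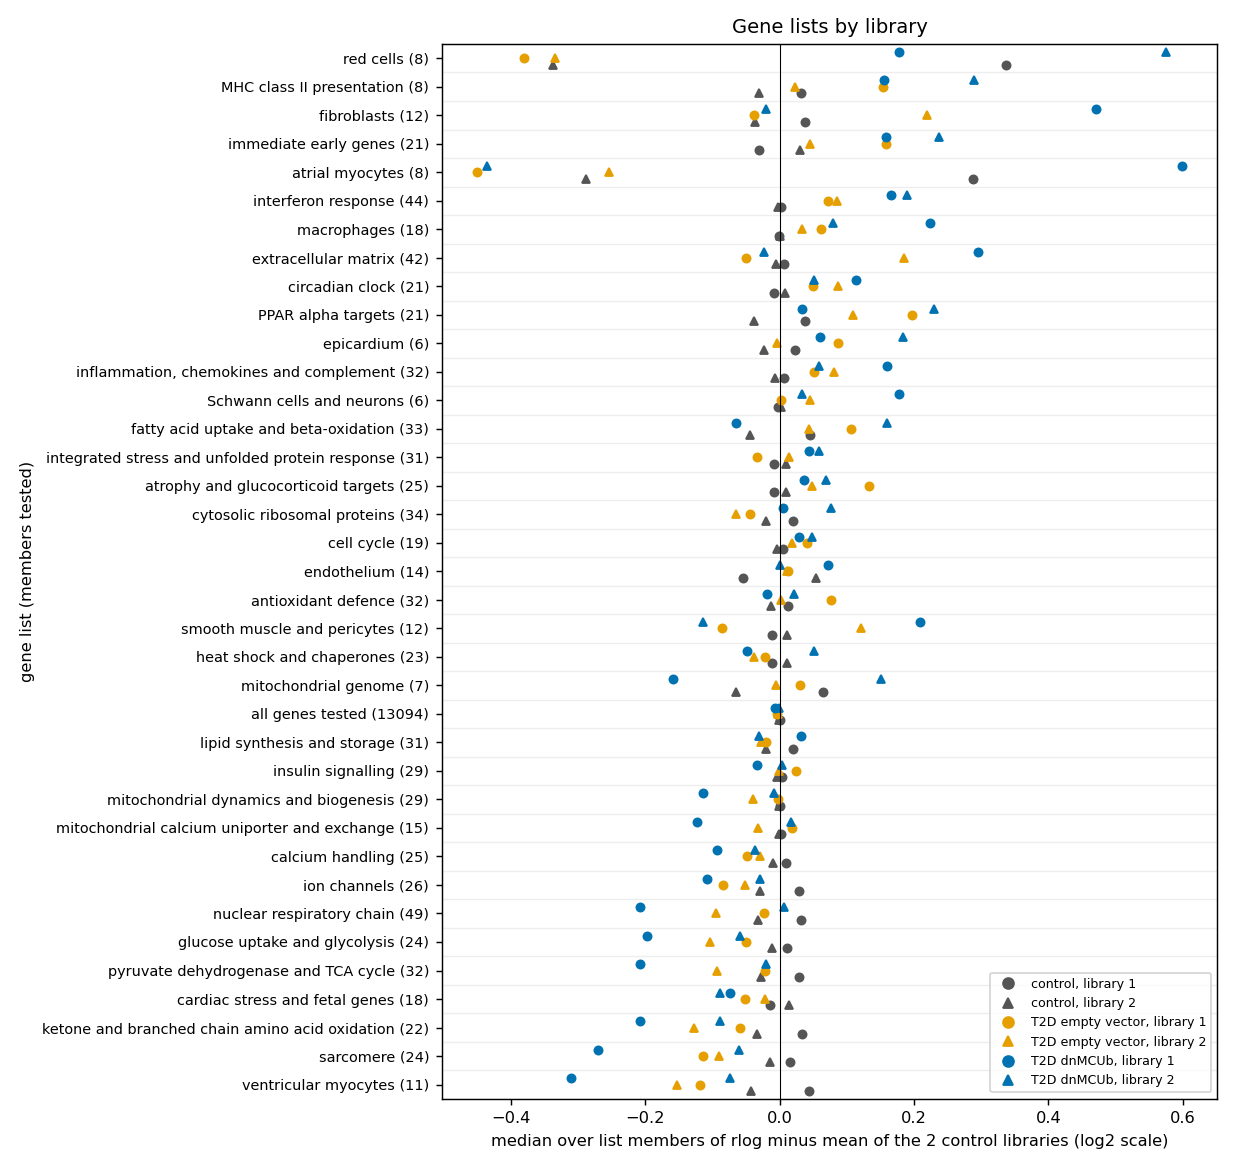
Each row is a gene list with the number of members tested, and each symbol is the median over members of the rlog of 1 library minus the mean of the 2 control libraries (circles library 1, triangles library 2). The interferon list is at 0.166 and 0.189 in the dnMCUb libraries (blue), whereas fibroblasts are at 0.471 and -0.0197 and atrial myocytes at 0.599 and -0.435.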

How the data were processed

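RNA from mouse hearts was sequenced in 6 libraries, in 3 groups of 2, with a stranded total RNA kit after removal of ribosomal RNA, per the labels' protocols. Tools listed in the submitters' processing notes are STAR 2.5.2a, DESeq2 and bcl2fastq 2.20.0.422, and builds are hg38, mm10 and GRCm38, with no role stated. How reads were counted, and with which strand setting, is not given in the sources used here. The authors deposited 1 table with rlog values on the log2 scale per library, and with log2 fold changes, p-values and adjusted p-values for each pair of groups. The table has 54352 rows, of which 31574 varied between libraries, with rlog from -2.09 to 22.07. Coordinates are as the table gives them, and those of 53565 transcripts are the same in GENCODE M21 (GRCm38). Symbols of 26 genes turned into dates were restored by Ensembl identifier, and 0 value columns were left without a sample.

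Differences were computed from the rlog values in limma (version 3.58.1, R 4.3.3) using a mean-variance trend and 1 term per group over all 6 libraries (3 residual degrees of freedom, 4.6 prior), for the 13094 genes with mean rlog of at least 5. Benjamini-Hochberg adjustment was at 0.05, and the script was tested on simulated data. SE is limma's standard error. No count test was possible, as the table holds no counts. Gene lists (27 of pathways, 13 of cell types) are described by counts and medians, with no set test. Genes named are those with the 12 smallest p per direction with groups apart, the 8 per direction with the smallest adjusted p in the authors' deposited table, up to 4 members of each list by p, and preset genes of the uniporter, fuel use and the stressed heart; not all are printed, and some results are not reported here. Members, lists and the comparison were chosen with earlier results of these data known. Calls in the authors' deposited table are printed for only some of the named genes. Promoters are from RefSeq (GRCm38.p6) and were matched by symbol for 9302 genes tested. Replicate numbers do not pair the libraries, and the alternatives tried are other filters, scalings, fits, a replicate block and leaving out each library.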

Additional observations from a re-analysis of the deposited data

Results flagged for a closer look

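Red cell markers lay on opposite sides of the control mean in the 2 diabetic groups. Their list median over the control mean was -0.381 and -0.334 in the empty vector libraries and 0.177 and 0.575 in the dnMCUb libraries, while the control libraries stood at 0.337 and -0.337. The same held for cytosolic ribosomal protein genes, at -0.0446 and -0.0656 in the empty vector libraries and 0.00446 and 0.0762 in the dnMCUb libraries, with control at 0.0206 and -0.0206. In both lists dnMCUb library 1 lay between the 2 control libraries, as did empty vector library 2 for the red cell markers. The difference between the groups was not tested for either list as a whole. Gene by gene, the authors' deposited table calls Hba-a1, Hba-a2 and Hbb-bs higher in dnMCUb than in empty vector. For the red cell markers the control libraries differ from each other by as much as the groups do.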

How the results depend on the processing

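For dnMCUb against control limma called 9 genes, but 0 in the 4 libraries alone, 0 without the mean-variance trend, 0 with no filter, 0 with libraries centred on their median, 0 after quantile normalisation and 29 with a mean rlog of at least 7. Leaving out a library gave 0 to 743: 0 without control 1, 1 without control 2, 89 without dnMCUb 1 and 743 without dnMCUb 2, where the lone library is assumed to vary like the others, and 0 without either empty vector library (an alternative chosen after seeing the data). With the replicate block 0 genes were called, and correlations of same-numbered deviations were -0.0133 for control with dnMCUb and -0.511 for empty vector with dnMCUb. For dnMCUb against empty vector 0 genes were called, 0 to 14 with a library left out and 11 with crossed numbers as a block in its 4 libraries alone (chosen after seeing the data). Empty vector against control gave 0, but 30 in its 4 libraries alone and 0 to 1 with a library left out. The causes were not tested. The adjusted p of the 9 genes was 0.0501 after quantile normalisation, 0.0534 after centring, 0.265 with no filter and 0.209 with the block. Quantile normalisation turned Pln (0.0658) and centring turned Myh7 (-0.00428). With a library left out, differences that limma did not call changed sign, wide ones such as Dkk3 and Acta1 included: Acta1 from -0.99 to 0.0319, Cnn1 from -0.0334 to 0.67, S100b from -0.0132 to 0.23, Lmod1 from -0.039 to 0.43, Kcnj3 from -0.16 to 0.00788, Nppa from -0.73 to 0.12, Dkk3 from -0.45 to 1.91, Pln from -0.23 to 0.0171, mt-Nd4 from -0.0449 to 0.24, Micu2 from -0.12 to 0.0200, Sln from -0.42 to 1.02, mt-Nd1 from -0.23 to 0.0448, Ppargc1a from -0.22 to 0.11, mt-Co1 from -0.22 to 0.0432, Smdt1 from -0.0600 to 0.0323 and Myh7 from -0.031 to 0.0435. Quantile normalisation moved list medians by over 1.5 times for pyruvate dehydrogenase and the TCA cycle (-0.0652), the nuclear respiratory chain (-0.0472), calcium handling (-0.0165) and ventricular myocytes (-0.0293). Depth is unknown, so what counting error adds was not assessed.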

Other observations

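Genes of the integrated stress and unfolded protein response were mostly higher in dnMCUb than in control. Of 31 tested, 24 had a difference above 0 (48.5% of all genes tested) and 16 had groups apart with dnMCUb higher (20.2% of all), but the median was 0.06 and none passed in limma. Edem1, which sends misfolded glycoproteins to degradation, stood at 8.67 and 8.72 in control, 8.64 and 8.78 in the empty vector group and 8.90 and 8.84 in dnMCUb (difference 0.17, SE 0.05, limma adjusted p 0.31). Pdia4, a disulfide isomerase of the endoplasmic reticulum, stood at 9.87 and 9.86, 9.77 and 9.90, and 9.99 and 10.03 (0.14, SE 0.05, limma adjusted p 0.39). Both dnMCUb libraries were above the others in these 2 genes. The inducible heat shock genes Hspa1a and Hspa1b, near-identical copies whose reads may be split uncertainly, stood at 5.68 and 5.79 and at 5.77 and 5.87 in dnMCUb, against 5.55 to 5.65 in the other 4 libraries.

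Of the 70 genes the authors' deposited table calls higher, 65 code for proteins and 5 are noncoding. The small nucleolar RNA Snord17 stood at 9.84 and 9.74 in control, 10.07 and 9.82 in the empty vector group and 10.34 and 10.07 in dnMCUb, and Snora73b at 10.27 and 10.27, 10.48 and 10.36, and 10.69 and 10.56. Libraries were depleted of ribosomal RNA, and the rows Gm42418, Mir6236 and n-R5-8s1, also called higher in the authors' deposited table, had dnMCUb values of 12.21 and 12.07, 9.47 and 9.09, and 6.99 and 6.83. The authors' log2 folds of dnMCUb over control were 0.57, 0.98 and 1.25 in that order. Those of empty vector over control were 0.26, 1.05 and 1.40, and of these n-R5-8s1 alone is called (adjusted p 0.00749). All 34 genes called lower there code for proteins.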
